A study of Mus musculus with 175 samples.

Results

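The 10 alpha and beta tubulin isotypes examined here were Tuba1a, Tuba4a, Tuba8, Tubb1, Tubb2a, Tubb2b, Tubb3, Tubb4b, Tubb5 and Tubb6, found by their symbols among the 49585 mouse features of the deposited gene annotation. They were followed in single cells sorted from E14.5 mouse fetal livers of the Runx1 P1-GFP::P2-hCD4/+ reporter, on a background of C57BL/6 crossed with ICR. In this line human CD4 on the cell surface reports activity of the P2 promoter of the Runx1 gene, and all 4 populations came from reporter livers. The genotype label writes P2-GFP where the protocol writes P1-GFP. The livers of 2 litters were pooled before the sort, so each population was 1 sample, its cells were not replicates, and no test between populations was possible. All intervals cover counting error only, and PCR copies count as separate reads because the protocol used no molecular identifiers.

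The populations were megakaryocyte-erythroid progenitors (MEPs; Lin- Sca1- cKit+ CD16/32low CD34-) and common myeloid progenitors (CMPs; the same gate but CD34+), all CD41- and CD150+, each divided by P2-hCD4. After the study's filters on cells 56 of 57 MEPs without and 47 of 48 MEPs with P2 activity (P2- and P2+) remained, and 27 of 27 P2- and 42 of 43 P2+ CMPs, with between 295064 and 1540631 reads on mouse genes each. The CMP labels read low and high, taken here as P2- and P2+, and 1 P2- CMP carries a subtype label that names MEP. Summed erythroid markers were highest in the MEPs, and summed granulocyte and monocyte markers were highest in the CMPs. Of 9 erythroid markers read in at least 25% of the cells, 7 were at least 2-fold lower in CMPs than in MEPs in each P2 class. In each class 1 went the other way, at least 2-fold higher in CMPs. Wherever 4 values stand in a row, both MEP populations come before both CMP populations, with P2- ahead of P2+ in each pair. In that order 17 erythroid markers summed to 2384, 1244, 867 and 469.6 reads per 1000000 mouse reads (CPM). The 12 granulocyte and monocyte markers summed to 9.83, 47.9, 346.5 and 608 CPM, and the 17 megakaryocyte markers to 109, 801, 553 and 707 CPM. The 5 neural markers, checked because several of these isotypes are best known from neurons, summed to 0.03 CPM in each MEP population and to 0 in both CMP populations.

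Microtubules are hollow polymers of alpha and beta tubulin dimers, and they build the mitotic spindle of dividing cells. Vertebrates carry a family of alpha and of beta tubulin genes whose proteins are nearly alike in the body and differ most at the acidic carboxy-terminal tail, where motor proteins and modifying enzymes act. In the blood lineages Tubb1, the beta isotype of megakaryocytes and platelets, forms the marginal band of the platelet, and Tuba4a and Tuba8 are alpha isotypes also known from platelets. Tubb5 and Tubb4b are broadly used beta isotypes, Tubb2a, Tubb2b and Tubb3 are best known from neurons, and Tubb6 is a divergent beta isotype. Tuba1a is the alpha isotype of developing neurons.

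The ends of the coding sequences are shown because the isotypes are told apart there. In each line, read from the GENCODE vM21 transcripts on GRCm38, the capitals are the last sense codon and the stop codon follows.
Tuba4a: tatgaggacgaggatgagggagaaGAGtag
Tuba8: gaagaagagaatgagggggaggaaTTTtaa
Tubb1: gaggtggaggcagaagacaaagatCATtag
Tubb4b: gaggaggaggctgaggaggaggtgGCTtag
Tubb5: ttcggagaggaggcagaagaggagGCCtaa

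Tuba4a ended in a codon for glutamate and Tuba8 in a codon for phenylalanine. The 2 alpha isotypes Tuba1b and Tuba1c, which are not among the 10, ended in codons for tyrosine, the residue that is removed and added back in the detyrosination cycle of microtubules. Of the last 20 codons 10 to 12 were for glutamate or aspartate in each of the 5 isotypes shown. These stretches lie at chr1:75215622-75215651 (minus strand) for Tuba4a, chr6:121226050-121226079 (plus) for Tuba8, chr2:174457853-174457882 (plus) for Tubb1, chr2:25222308-25222337 (minus) for Tubb4b and chr17:35834982-35835011 (minus) for Tubb5, each within 1 exon.

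The other end of the coding sequence is shared. The first 4 codons are shown in capitals for 3 beta isotypes because they give the short peptide through which a cell with excess free tubulin recognises nascent tubulin and degrades its mRNA.
Tubb1: ATGAGAGAGATCgtgcacatccagattggc
Tubb4b: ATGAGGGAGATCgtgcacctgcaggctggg
Tubb5: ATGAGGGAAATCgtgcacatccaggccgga

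They lie at chr2:174450745-174450774 (plus), chr2:25224561-25224590 (minus) and chr17:35838024-35838053 (minus). Of the 10 isotypes 9 had their coding sequence read, and all 9 began with codons for methionine, arginine and glutamate. The fourth codon was for isoleucine in the 6 beta isotypes and for cysteine in the 3 alpha isotypes among these 9.

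Tubb5, a broadly used beta isotype, was read in every cell at a similar level throughout. The pooled level, which is all reads of a population over all its mouse reads, was 2710.0 CPM for P2- MEPs (95% interval 2692 to 2729) and 2466 CPM for P2+ MEPs (2448 to 2483). Among CMPs it was 2639.8 (2616 to 2663) without and 2621 (2604 to 2638) with P2 activity. Cells of the 4 populations had medians of 2580.4, 2342, 2705 and 2598 CPM, lowest values of 1712, 1115, 1301 and 1055 CPM and highest values of 3913, 3709, 4202 and 4260.3 CPM. The 4 populations overlapped over most of their range. P2+ cells differed from P2- cells by -0.14 on the log2 scale (-0.15 to -0.12) in MEPs and by -0.01 (-0.03 to 0.01) in CMPs.

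Tubb4b was read in every cell too, and P2- MEPs stood above the other populations. The pooled level of P2- MEPs was 794 CPM (784 to 804), that of P2+ MEPs 563 (554 to 571), that of P2- CMPs 533 (523 to 544) and that of P2+ CMPs 516 (509 to 524). Cells of the 4 populations had medians of 789.7, 492, 531 and 469.6 CPM, lowest values of 263.6, 172, 198 and 80.4 CPM and highest values of 1277, 1179, 967 and 1444 CPM. The ranges overlapped, and the widest was that of P2+ CMPs. P2+ MEPs stood at 0.71 times the P2- MEP level (log2 ratio -0.50, -0.52 to -0.47), and P2- CMPs at 0.67 times that level (log2 ratio -0.57, -0.61 to -0.54). Both fell short of 2-fold, and P2+ CMPs differed from P2- CMPs by -0.05 (-0.08 to -0.01).

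Tubb2a was a minor isotype, with reads in a minority of cells in each population. Its pooled level was 14.9 CPM (13.6 to 16.3) among P2- and 14.5 (13.2 to 15.9) among P2+ MEPs, and 7.80 (6.57 to 9.19) among P2- and 10.6 (9.59 to 11.7) among P2+ CMPs. Only 4 P2- CMPs had a read, and 1 of them gave 66.4% of the reads. The log2 ratio of P2- CMPs over P2- MEPs was -0.93 (-1.22 to -0.66), and without the cell of highest CPM in each population it was -2.19. The same step moved the P2+ over P2- ratio of CMPs from 0.45 (0.16 to 0.73) to 1.76, so both values rest on single cells.

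Tubb6 had its lowest level in P2- MEPs and its highest in P2+ CMPs. Among MEPs the pooled level was 1.40 CPM (1.02 to 1.89) without and 12.8 (11.6 to 14.1) with P2 activity, and among CMPs it was 19.96 (17.97 to 22.1) and 25.8 (24.2 to 27.5). A read was present in 4 P2- and 8 P2+ MEPs and in 7 P2- and 22 P2+ CMPs, and the highest cells stood at 37.4, 348.5, 163 and 143 CPM. The median cell had no read except among P2+ CMPs, where it was at 1.15 CPM. Of the reads in P2+ MEPs 54.3% came from 1 cell, and without it the pooled level was 5.95 CPM. The log2 ratio of P2+ over P2- MEPs was 3.18 (2.73 to 3.67), and 2.79 without the highest cell of each population. That of P2- CMPs over P2- MEPs was 3.83 (3.37 to 4.32). P2+ CMPs exceeded P2+ MEPs by 1.01 (0.84 to 1.19), which was 1.88 without the highest cells and 0.95 over every deposited cell, and P2+ CMPs exceeded P2- CMPs by 0.37 (0.19 to 0.55).

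Tubb1, the platelet beta isotype, was read in 7 of 172 cells. Among P2- MEPs 3 cells had 6, 10 and 21 reads, among P2- CMPs 1 cell had 1 read, and among P2+ CMPs 3 cells had 12, 17 and 31 reads. None of the 47 P2+ MEPs had a read (exact Clopper-Pearson upper limit 7.55% of cells). The pooled sum of the megakaryocyte markers was highest there, but their median cell stood at 531 CPM, below the 631 CPM of P2+ CMPs. All 4 CMPs with Tubb1 reads also had reads of Tuba8 and of Gp9, a subunit of the platelet receptor for von Willebrand factor. Other megakaryocyte markers varied: the 3 P2+ CMPs had 0 reads of Pf4, and 1 of them also had 0 reads of Itga2b and Plek. No P2- MEP had a read of Tuba8 or Gp9, so the 3 with Tubb1 reads could have neither. The pooled level was 1.21 CPM (0.85 to 1.67) for P2- MEPs and 1.65 (1.26 to 2.12) for P2+ CMPs. In MEPs the P2+ over P2- log2 ratio was at most -3.67, a bound set with 3 reads over the P2+ population, and in CMPs it was 4.92 (2.39 to 10.2), a ratio of 60 reads to 1.

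Tubb3 and Tubb2b were near 0. Tubb3 had 59 reads in 5 P2- MEPs, 1 read in 1 P2+ MEP and none in the CMPs. Of the P2- MEP reads 54.2% came from 1 cell, and the pooled level there was 1.93 CPM (1.47 to 2.49). Tubb2b had 1 read in 1 P2- MEP and 1 read in 1 P2- CMP, too few for a ratio.

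Tuba4a, a platelet alpha isotype without the terminal tyrosine codon, was lowest in P2- MEPs. The pooled level was 159.5 CPM (155 to 164) there and 398.6 (392 to 406) in P2+ MEPs, and it was 337.7 (329.4 to 346.2) for the CMPs without and 403 (396 to 409) for the CMPs with P2 activity. Cells of the 4 populations had medians of 158, 339.99, 297.6 and 353.2 CPM, lowest values of 0, 1.602, 32.7 and 39.7 CPM and highest values of 595, 1015, 883 and 915 CPM. The populations overlapped, but the upper quartile of P2- MEPs, 216.3 CPM, lay below the lower quartile of P2+ MEPs, 285.6 CPM. P2+ MEPs stood 2.50-fold above P2- MEPs (log2 ratio 1.32, 1.27 to 1.37), and P2- CMPs stood 2.12-fold above them (log2 ratio 1.08, 1.03 to 1.14). The second value sat at the 2-fold line: it was 0.981 with edgeR's TMM factors, 0.999 with DESeq2's size factors and 0.996 without the cell of conflicting labels, each just under 2-fold. P2+ CMPs exceeded P2- CMPs by 0.25 (0.21 to 0.30), and P2+ CMPs and P2+ MEPs differed by 0.02 (-0.02 to 0.05).

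Tuba8 had no read in P2- MEPs and similar levels in the other 3 populations. With 30606262 reads on mouse genes summed over P2- MEPs, 3 reads would be 0.098 CPM. The pooled level was 29.8 CPM (27.9 to 31.8) for P2+ MEPs, and among CMPs it was 25.3 (23.0 to 27.7) without and 25.7 (24.1 to 27.4) with P2 activity. A read was present in 21 P2+ MEPs, 11 P2- CMPs and 14 P2+ CMPs, whose highest cells stood at 185, 203 and 265.6 CPM, so the median cell of each population was at 0. P2+ MEPs were at least 304.1-fold and P2- CMPs at least 257.6-fold higher than P2- MEPs, bounds set with 3 reads over all P2- MEPs. P2+ CMPs differed from P2- CMPs by 0.02 on the log2 scale (-0.14 to 0.19) and from P2+ MEPs by -0.21 (-0.35 to -0.08). A single cell gave 38.7% of the P2- CMP reads, and without the highest cells P2+ CMPs exceeded P2- CMPs by 0.46, while the bound for P2- CMPs over P2- MEPs moved from 8.01 to 7.38 on the log2 scale.

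Tuba1a, the neuronal alpha isotype, was higher in the CMPs than in the MEPs. Its pooled level was 2.88 CPM (2.31 to 3.54) among P2- and 3.96 (3.30 to 4.72) among P2+ MEPs, against 18.9 (16.99 to 21.0) among P2- and 13.9 (12.7 to 15.1) among P2+ CMPs. A read was present in 15, 7, 14 and 20 cells of the 4 populations, and the highest cells stood at 31.2, 65.7, 135 and 93.8 CPM. CMPs exceeded MEPs by 2.72 on the log2 scale (2.38 to 3.07) among P2- cells and by 1.81 (1.52 to 2.10) among P2+ cells. P2+ cells differed from P2- cells by 0.46 (0.06 to 0.87) in MEPs and by -0.45 (-0.65 to -0.25) in CMPs, both short of 2-fold. The 8 stem and multipotent markers, Cd34 of the sort gate among them, summed to 12.6, 139, 735 and 1090.4 CPM in the 4 populations and the 8 mast cell and basophil markers to 2.03, 6.75, 97.6 and 41.3 CPM, with 5 of the latter 8 at 0 in P2- CMPs, and their part in the Tuba1a difference was not tested.

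**Figure D1:**
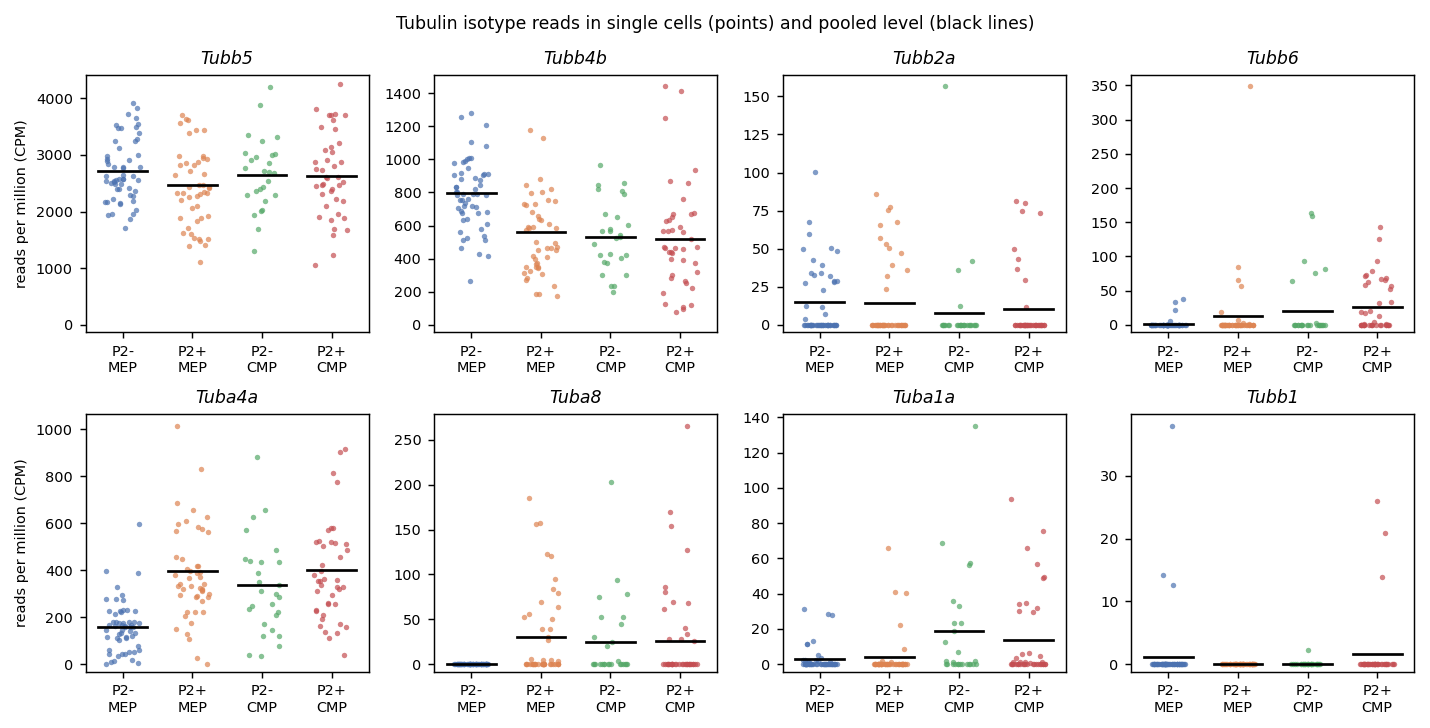
Reads per 1000000 mouse reads (CPM) of 8 tubulin isotypes in single cells (points, spread sideways at random) of the 4 populations, with the pooled level as a black line; each panel has its own linear axis. Tubb5 lies near the same level in all populations, Tuba8 is at 0 in every P2- MEP, and Tubb1 has reads in 7 cells only.

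A gene was taken as tested when at least 25% of the 172 cells had a read of it, the dropout filter of the study, and as called when the pooled levels differed at least 2-fold. Of the 9238 genes tested 6 were members (Tuba1a, Tuba4a, Tuba8, Tubb2a, Tubb4b and Tubb5), and Tubb1, Tubb2b, Tubb3 and Tubb6 did not pass the filter. The counts that follow describe these 6 and not the family. Tuba8, Tuba1a and Tubb2a passed the filter only through the populations where they were high, so their calls or lack of calls and the medians over the 6 are a description, and nothing is read from them against the share of all genes.

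In MEPs 2 of the 6, Tuba4a and Tuba8, were at least 2-fold higher in P2+ cells, where 7.3% of all genes tested were, and 0 were lower, where 2.77% were. The median log2 ratio of the 6 was 0.21 and that of all genes tested was 0.01. In CMPs 0 of the 6 were called in either direction, against 3.6% of all genes tested higher and 4.57% lower in P2+ cells, and the medians were 0.01 and -0.03. Among P2- cells 3 of the 6, Tuba1a, Tuba4a and Tuba8, were higher in CMPs than in MEPs, against 11.9% of all genes, and 0 were lower, against 6.87%, with medians of 0.52 and -0.01. Among P2+ cells 1 of the 6, Tuba1a, was higher in CMPs, against 7.9% of all genes, and 0 were lower, against 7.57%, with medians of -0.05 and -0.06. The comparisons share populations, since P2- MEPs enter the first and the third. Among these 6 the 3 alpha members made up all calls, and Tubb2a, Tubb4b and Tubb5 reached 2-fold in none of the 4 comparisons. The 4 members that failed the filter are all beta, so no contrast of alpha with beta is drawn. Of these Tubb6 had log2 ratios of 3.18 for P2+ over P2- MEPs and 3.83 for P2- CMPs over P2- MEPs. It had 1.01 for P2+ CMPs over P2+ MEPs and 0.37 for P2+ over P2- CMPs. In sums over cells fewer cells with an isotype and less RNA in each of them cannot be told apart, so the share of cells is given next.

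**Figure D2:**
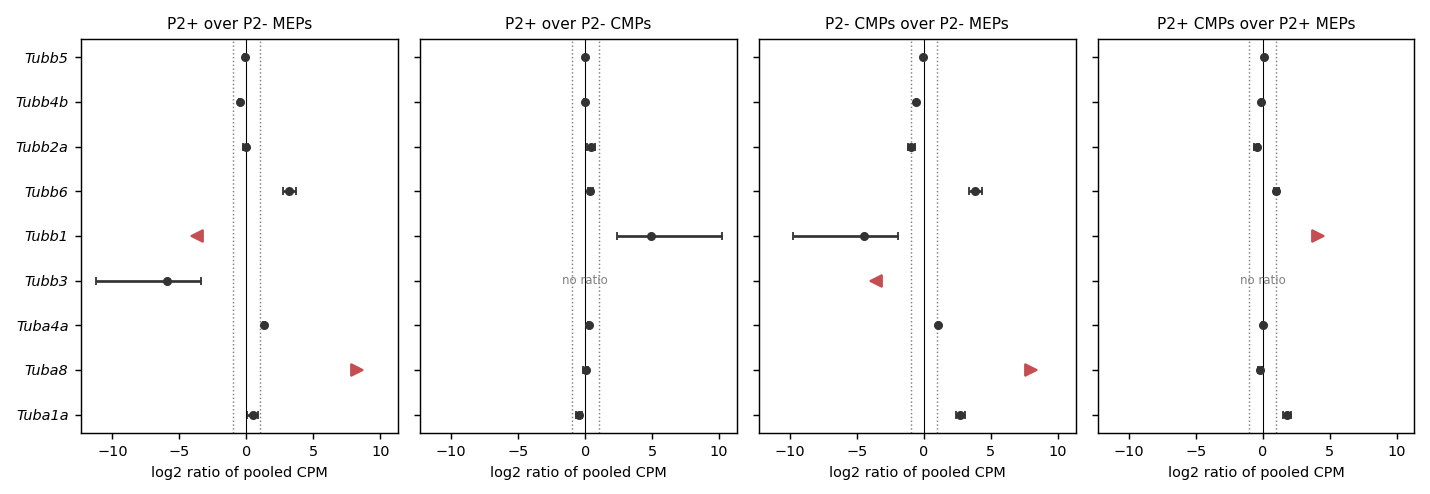
Log2 ratio of pooled CPM of 9 isotypes in the 4 comparisons (circles with exact 95% counting intervals), with dotted lines at 2-fold; red triangles are bounds from a population without a read and point the way the true ratio may lie. Tubb5 sits near 0 in all 4 panels, and Tuba8 is a bound of 8.25 in the MEP panel and at 0.02 in the CMP panel.

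Cells were thinned to 100000 reads on mouse genes each, which left out no cell, before shares were taken. Among MEPs Tuba8 was read in 0 of 56 cells without P2 activity (exact Clopper-Pearson interval 0 to 6.38%) and in 17 of 47 with it (36.2%, 22.7 to 51.5%). Among CMPs it was read in 10 of 27 cells without (37.0%, 19.4 to 57.6%) and in 14 of 42 with P2 activity (33.3%, 19.6 to 49.5%). These intervals cover the counting of cells within 1 sample per population and are no test between populations. Tubb6 was read in 7.14% of cells (1.98 to 17.3%) among P2- and 10.6% (3.55 to 23.1%) among P2+ MEPs, and in 22.2% (8.62 to 42.3%) among P2- and 45.2% (29.8 to 61.3%) among P2+ CMPs. Tuba1a was read in 10.7%, 10.6%, 37.0% and 31.0% of the cells of the 4 populations. Without thinning the shares were 26.8%, 14.9%, 51.9% and 47.6% for Tuba1a, 7.14%, 17.02%, 25.9% and 52.4% for Tubb6, and 0%, 44.7%, 40.7% and 33.3% for Tuba8. Tuba4a was read in 92.9% of P2- MEPs (82.7 to 98.0%) and in 97.9% to 100% of the cells of the other populations, so nearly every cell had a read and the share could not show a difference in level.

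**Figure D3:**
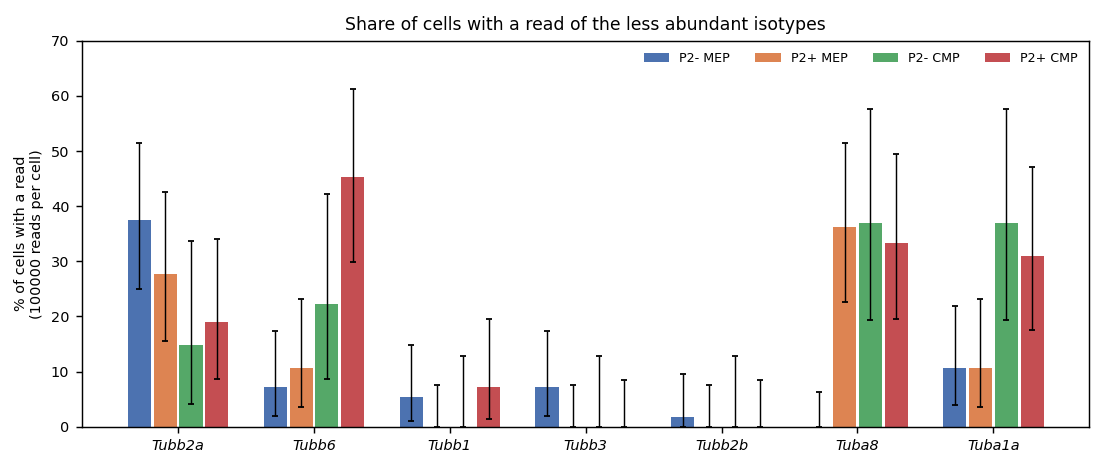
Percent of cells with at least 1 read of each less abundant isotype at 100000 reads per cell (bars; lines are exact 95% binomial intervals) in the 4 populations. The Tuba8 bar of P2- MEPs is at 0 with an upper limit of 6.38%, the other 3 Tuba8 bars stand between 33.3% and 37.0%, and the Tubb6 bar is tallest in P2+ CMPs at 45.2%.

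Levels of different isotypes were compared per kilobase of exon. Tubb5 made up 67.5%, 72.2%, 74.7% and 74.7% of the summed beta tubulin level in the 4 populations, and Tubb4b made up 31.5%, 26.3%, 24.05% and 23.5%. Of the small rest Tubb2a was at most 0.88% and Tubb6 at most 1.003%. On the reads that were counted, Tubb5 was the highest beta isotype per kilobase in each of the 172 cells. Among P2+ MEPs its lowest share was 51.4%, and the highest Tubb4b share there was 48.6%. The Tubb5 share per cell had a median of 67.7% among P2- MEPs (range 51.9 to 86.8%) and of 76.6% among P2+ CMPs (55.9 to 90.7%), so the ranges overlapped.

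Among alpha tubulins the largest share belonged to Tuba1b, which is not among the 10, with 85.2%, 74.4%, 73.0% and 73.2%. Tuba1b was the highest alpha isotype per kilobase in every cell. Tuba4a held 6.35%, 16.1%, 13.8% and 16.2% of the summed alpha level, and Tuba8 held 0%, 1.97%, 1.69% and 1.69%. Without division by length the Tuba4a shares were 11.6%, 27.1%, 23.5% and 27.2%, and per kilobase of the longest transcript they were 7.55%, 18.8%, 16.2% and 18.96%, in each case lowest in P2- MEPs. The isotypes read here that do not end in a tyrosine codon, Tuba4a and Tuba8 together, had a median share per cell of 6.24%, 16.5%, 14.2% and 17.1% in the 4 populations, with lowest cells at 0%, 0.10%, 1.31% and 4.02% and highest cells at 22.0%, 30.7%, 33.6% and 38.6%. The summed alpha tubulin level was 678, 667, 660.4 and 670.1 CPM per kilobase. The summed beta level was 1206, 1026, 1062 and 1054 CPM per kilobase, highest in P2- MEPs.

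**Figure D4:**
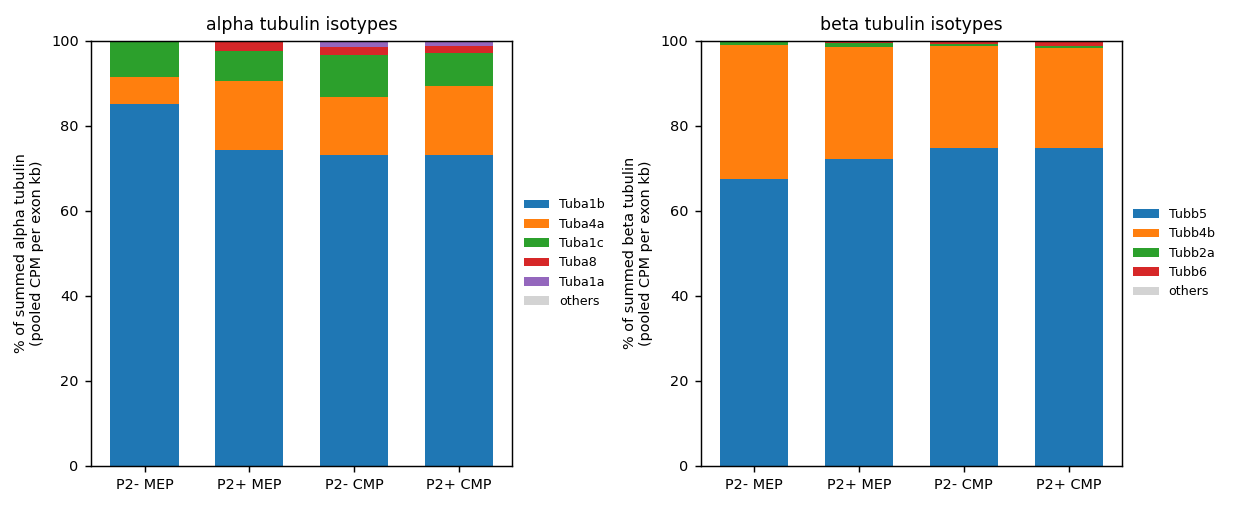
Share of each isotype in the summed alpha (left) and beta (right) tubulin level of the 4 populations, as percent of pooled CPM per exon kilobase. The Tuba4a share is smallest in P2- MEPs at 6.35% and lies between 13.8% and 16.2% elsewhere, and the Tubb4b share is largest in P2- MEPs at 31.5%.

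Several of these counts are uncertain because the authors' counting drops a read that fits more than 1 gene. Of the 75-base windows of Tuba1a transcripts 70.4% also occurred in transcripts of another gene (39.9% in Tuba1c), of those of Tubb2a 43.2% (40.2% in Tubb2b), of those of Tubb2b 30.2% and of those of Tubb4b 29.9% (24.7% in the pseudogene Tubb4b-ps1). Tubb1, Tubb3, Tubb5 and Tubb6 shared 0 windows. The paper trimmed its reads before alignment, so they were shorter than these windows, and sharing at the length of the reads was not measured. Tuba1b shared 70.04% and Tuba1c 48.9% of their windows, so the summed alpha level and every share of it given above depend on reads that were dropped, by an amount that was not tested. The summed beta level, its shares and the order of Tubb5 and Tubb4b in single cells depend on dropped reads too, since Tubb4b shares windows and Tubb5 does not. Tuba4a overlaps Stk16, a kinase gene, over 37.3% of its exon bases, and reads there are assigned to neither gene. Stk16 itself had 131.5, 210.05, 152 and 173 CPM in the 4 populations, a P2+ over P2- log2 ratio of 0.68 (0.62 to 0.73) in MEPs, and its part in the Tuba4a values was not tested. Tuba8 overlaps Gm15856 over 16.3% of its exon bases, and Gm15856 was at most 1.05 CPM.

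From cell to cell Tubb4b went with the G2/M genes within each population, though weakly in P2- MEPs. Tubb5 did so in the populations other than P2- MEPs, and both went with them most closely in P2+ CMPs. Spearman's rho of Tubb4b with the summed reads of 25 G2/M genes, in thinned cells and given as a description, was 0.22 over 56 P2- MEPs, 0.38 over 47 P2+ MEPs, 0.52 over 27 P2- CMPs and 0.70 over 42 P2+ CMPs. For Tubb5 it was -0.05, 0.35, 0.40 and 0.66, so in P2- MEPs Tubb5 did not go with the list. The G2/M list spanned 332.5 to 11439 CPM over P2- CMPs and 361.7 to 12184 CPM over P2+ CMPs, against 2098 to 9452 CPM over P2- MEPs. Its pooled level was 4738, 4115, 4613 and 3895 CPM in the 4 populations. Tubb4b and Tubb5 went with each other at rho 0.06, 0.30, 0.26 and 0.50. Cells of a population share their pool, their depth was set equal, and both genes draw on the same 100000 reads.

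Tuba8 went with the megakaryocyte markers in both P2+ populations. Its rho with the summed reads of the 17 markers was 0.41 over P2+ MEPs, -0.13 over P2- CMPs and 0.66 over P2+ CMPs. With the granulocyte and monocyte markers it was -0.05, -0.40 and -0.44 over the same populations. In P2- MEPs, where Tuba8 had no read, 8 of the 17 megakaryocyte markers were also at 0, Pf4, Gp9 and Gp1bb among them. Itga2b, which encodes the CD41 that the sort gated against, is in the list. Tuba4a had rho of 0.04, 0.23, 0.00 and 0.09 with the same markers within the 4 populations, weak in each, although the levels of both were lowest in P2- MEPs. The part of the megakaryocyte markers in the Tuba4a and Tuba8 differences, and that of the G2/M and erythroid markers in those of Tubb4b, was not tested.

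**Figure D5:**
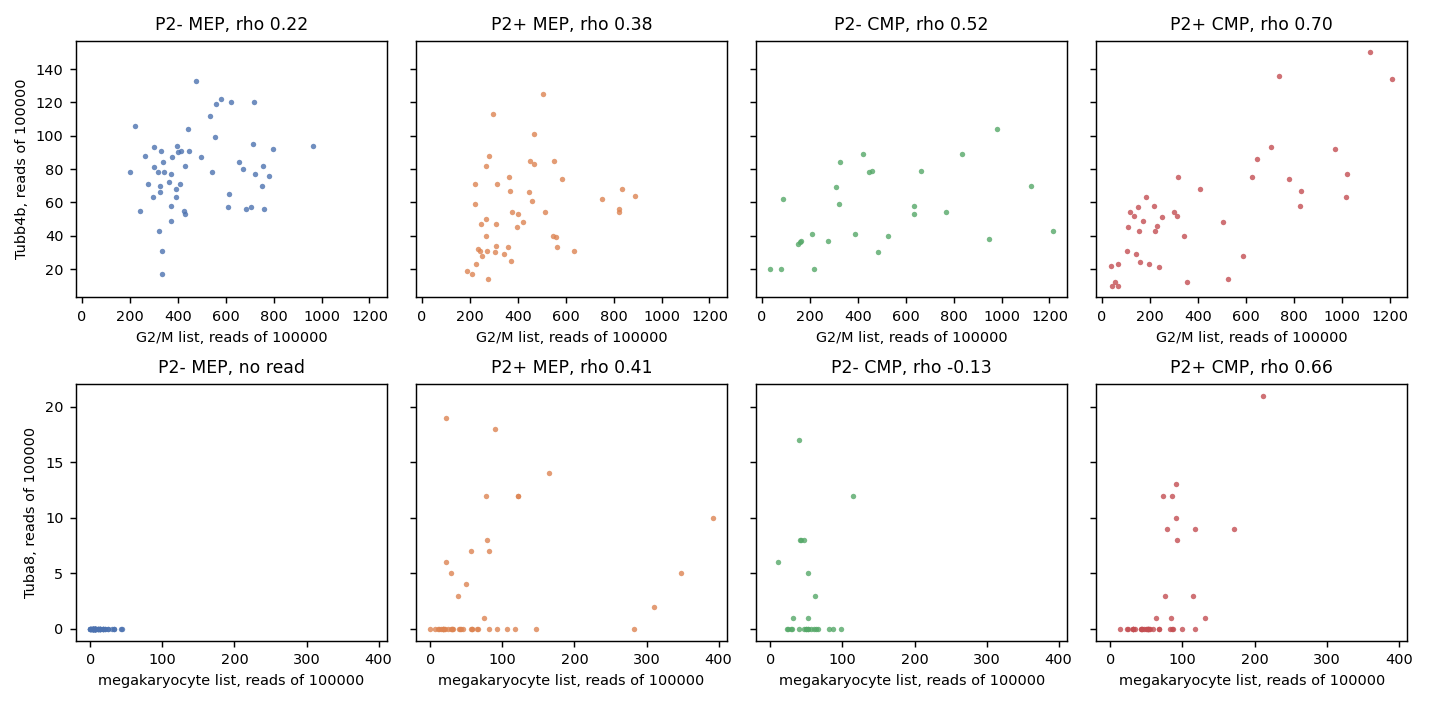
Reads of Tubb4b against the summed reads of 25 G2/M genes (top) and of Tuba8 against those of 17 megakaryocyte markers (bottom) in single cells thinned to 100000 reads, by population, with Spearman's rho. The Tubb4b rho is highest in P2+ CMPs (0.70), and all Tuba8 points of P2- MEPs lie at 0.

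The genes most like each member over all 172 cells were taken by Spearman's rho of CPM. For Tuba8 they included Plek, a platelet substrate of protein kinase C (0.54), Fermt3, the kindlin of blood cells (0.53), Treml1, a platelet granule receptor (0.51), and the transcription factor Gata2 (0.47). For Tuba4a they included the ribosomal RNA entry Rn18s-rs5 (0.47), Gp9 (0.46), Gmfg (0.44) and Tmsb4x (0.42). Rn18s-rs5 took 5.58%, 7.18%, 8.84% and 10.6% of the mouse reads of the 4 populations. For Tubb4b they were Cdc20, an activator of the anaphase-promoting complex (0.57), Alad, a heme synthesis enzyme (0.52), Ube2c, a mitotic ubiquitin-conjugating enzyme (0.52), the erythroid factor Klf1 (0.50) and the metallothionein Mt2 (0.50). For Tubb5 they were Tuba1b (0.44), Cdc20 (0.35), Gm1866 (0.34), Ube2c (0.34) and Psrc1, a spindle protein (0.33). For Tuba1a the highest was Ifi203 (0.37) and for Tubb2a Rnf123 (0.31). These values span 4 populations whose levels differ, so they hold differences between populations as well as between cells.

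The other genes of the tubulin system are given by their counts, to be read beside the shares of all genes tested above. Of the 10 other tubulins 4 were tested and 0 were called in any comparison, and Tuba1b had P2+ over P2- log2 ratios of -0.22 (-0.24 to -0.20) in MEPs and 0.025 (-0.0021 to 0.052) in CMPs. The 21 genes of tubulin folding and assembly, the CCT chaperonin, prefoldin and the tubulin cofactors, were all tested and 0 were called on this scale, but Tbcc, at -0.97 for P2+ over P2- MEPs, passed 2-fold at -1.02 with TMM factors. Of the 11 genes of the gamma-tubulin ring complex and its anchors, which nucleate microtubules, Akap9 was called higher in P2+ than in P2- MEPs (1.02), and Tubgcp5 (1.14), Akap9 (1.09) and Tubgcp2 (1.09) were called higher in P2- CMPs than in P2- MEPs, 3 of 11 where 11.9% of all genes were, with 0 called in the other 2 comparisons. With TMM factors Akap9 stood at 0.97 and 0.99 and Tubgcp2 at 0.98, under 2-fold, which left 1 of 11. Of 25 microtubule regulators tested Map7d1 was called higher in P2+ than in P2- MEPs (1.05) and in P2- CMPs than in P2- MEPs (1.53), and no other was called. With TMM factors Map7d1 stood at 0.999 in MEPs, under 2-fold, and Stmn1, the microtubule-destabilising stathmin, passed 2-fold at 1.03 for P2+ CMPs over P2+ MEPs, from 0.998.

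Of the 11 tubulin modifiers tested 1 was called higher and 2 lower in P2- CMPs than in P2- MEPs, 1 each way between P2+ CMPs and P2+ MEPs, and 1 lower in P2+ than in P2- MEPs. Ttll12, a member of the tubulin tyrosine ligase-like family, had 189, 87.3, 41.6 and 50.3 CPM in the 4 populations, a log2 ratio of -1.11 for P2+ over P2- MEPs (-0.98 with DESeq2's size factors) and of -2.18 for P2- CMPs over P2- MEPs. Svbp, the partner of the vasohibin enzymes that remove the terminal tyrosine, had 244.7, 196, 81.3 and 85.3 CPM, and CMPs differed from MEPs by -1.59 among P2- cells and by -1.20 among P2+ cells. Of the subunits of the polyglutamylase complex, Tpgs2 was higher in CMPs by 1.74 among P2- cells and Tpgs1 by 1.42 among P2+ cells. The ligase Ttl itself had 3.22 to 10.1 CPM and did not pass the filter. Ttc5, which binds the nascent amino-terminal peptide encoded by the first codons shown, had 31.7, 47.1, 36.3 and 70.6 CPM, and its P2+ over P2- ratio in CMPs was 0.96, under 2-fold, but 1.04 with TMM factors.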

How the data were processed

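Counts of reads per gene were deposited by the authors for 175 single cells (Smart-Seq2, paired ends), made per the labels with Trimmomatic 0.36, STAR 2.4.2a and HTSeq 0.6.1p1 on GRCm38 with GENCODE M12 exons, unstranded and not normalized. The percent of unmapped reads per cell is also as deposited by the authors. Totals exclude the 5 tally rows of HTSeq, which held 25.6% (ambiguous) and 7.40% (no gene) of the uniquely mapped reads.

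The study's filters (at least 250000 reads, at most 25% unmapped, at most 15% ERCC) left 172 cells of 571806 to 2827426 reads. Counts were summed per population and divided by its mouse reads (CPM), and log2 ratios used no pseudocount. Where 1 population had 0 reads, 3 reads over that population gave a bound, and where both had 3 or fewer no ratio was taken. Intervals (95%) were exact Poisson for levels, conditional binomial for ratios and Clopper-Pearson for shares. Exon lengths, shared windows and coding sequences came from GENCODE vM21, a later release on the same build. Sequence of chromosome 18, which holds Tubb6, and a few other items are not reported here. The study's test took cells as replicates and was not repeated.

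The members and lists were chosen with earlier results of these data known. The rule named all members, at most 4 genes of each list and the 5 genes most alike in rank. Stk16, Gm15856, Gp9, Pf4, Gp1bb, Itga2b, Ttl and Ttc5 were named after their values were seen where the rule did not reach them. The alternatives to the main scale were cells weighted equally, size factors of DESeq2 1.42.0, TMM factors of edgeR 4.0.16, and a scale without mitochondrial genes and Rn18s-rs5. Other alternatives kept every deposited cell, dropped the top cell of each gene or the cell of conflicting labels, or used other folds, filters, thinning depths and lengths. The ratio and thinning code (Python, numpy, scipy) was tested on simulated data.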

Additional observations from a re-analysis of the deposited data

Results flagged for a closer look

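Some isotypes had counting intervals on opposite sides of 0 under the same contrast, either in the 2 compartments or in the 2 P2 classes. With 1 pool of livers and 1 sample per population these differences were not tested. For Tuba1a P2+ cells differed from P2- cells by a log2 ratio of 0.46 in MEPs and -0.45 in CMPs, and without the cell of highest CPM in each population by 0.26 and -0.14. Tubb1 had a bound of -3.67 in MEPs and a value of 4.92 in CMPs for the same contrast, and its CMP over MEP ratio was -4.47 among P2- cells and a bound of 4.12 among P2+ cells, all from 7 cells, and without the cell of highest CPM these 4 values were all bounds, at -2.49, 2.33, -1.70 and 3.12. The Tuba8 CMP over MEP ratio was a bound of 8.01 among P2- cells and -0.21 among P2+ cells, and the second was -0.04 with DESeq2's size factors. For Tubb5 it was -0.038 among P2- cells, which became 0.02 on a scale without mitochondrial genes and Rn18s-rs5, and 0.088 among P2+ cells.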

How the results depend on the processing

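No paired analysis was possible because the 4 populations were sorted from 1 pool of livers and the cells carry no shared replicate numbers. No called log2 ratio of a member changed sign under the 7 alternatives of scale and cells. The members called in P2+ over P2- MEPs stayed at 2 under each of these 7. Tuba4a lost its call in P2- CMPs over P2- MEPs under 3 of them, as given above. Leaving out the cell of highest CPM called 1 member higher in P2+ over P2- CMPs and 1 lower in P2- CMPs over P2- MEPs, Tubb2a both times, and TMM factors also called 1 lower, Tubb2a, in the second. Over all genes tested, leaving out the highest cells gave 561 genes higher in P2+ over P2- CMPs and 970 lower in P2- CMPs over P2- MEPs, over 1.5 times the counts with all cells.

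With a fold of 1.5 Tubb2a was the 1 member lower in P2- CMPs over P2- MEPs, and the genes called higher and lower numbered 1494 and 857 (P2+ over P2- MEPs), 982 and 1257 (P2+ over P2- CMPs), 2048 and 1567 (P2- CMPs over P2- MEPs), and 1504 and 1738 (P2+ CMPs over P2+ MEPs), since the threshold is lower. With all 18216 genes of at least 10 reads they numbered 3348 and 2185, 2892 and 2583, 4293 and 2477, and 3977 and 2921, since more genes of few reads enter. That filter also let in Tubb1, Tubb3 and Tubb6: 2 members (Tubb1, Tubb3) were then lower in P2+ over P2- MEPs and in P2- CMPs over P2- MEPs, and the members higher were 3 in P2+ over P2- MEPs (with Tubb6), 1 in P2+ over P2- CMPs (Tubb1), 4 in P2- CMPs over P2- MEPs (with Tubb6) and 3 in P2+ CMPs over P2+ MEPs (Tuba1a, Tubb1, Tubb6). TMM factors and the loss of the highest cells each shifted the median log2 ratio of all genes by -0.10 in P2- CMPs over P2- MEPs, and the filter at 10 reads shifted it by 0.10. Small ratios of Tubb2a, Tubb4b, Tubb5 and Tuba4a, between -0.05 and 0.02, changed sign under 1 or more of the 7. Tubb1, Tubb2b and Tubb3 had reads in too few cells to compare shares. Dividing by no length or by that of the longest transcript moved 8 and 11 of 12 alpha shares and 23 and 15 of 28 beta shares by over 5% of their value. Of 40 shares of cells with a read, 11 left their counting interval when at least 5 reads were asked for, 4 without thinning, 1 at a lower and 2 at a higher thinning depth. Of 115 correlations within populations, 19 without thinning and 16 by Pearson's r of log2 CPM moved by 0.1 or more. For the genes of the tubulin lists, the same 7 alternatives were added after the data were seen: they ended calls of Akap9, Map7d1, Tubgcp2 and Ttll12 and brought calls of Atat1, Clip1, Mid1ip1, Rassf1, Stmn1, Tbcc, Tbcel, Tpgs2, Ttc5 and Tubgcp5, each in 1 comparison except Akap9 in 2.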
